A study of Homo sapiens with 3 samples.

Results

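RUNX2 and CBFB peaks on the short arm of chromosome 6 (6p) were examined in SAOS2 cells, a human osteosarcoma cell line that lacks p53. The peaks came from ChIP-seq, in which DNA bound by a protein is pulled down with an antibody and sequenced, with 1 library for each antibody and no replicates. The RUNX2 ChIP used a custom-made antibody and the CBFB ChIP a commercial one, the cells were untreated and below passage 20, and the labels named no clone. The input DNA, the remaining sample, was not analysed here. Members were all chromosome 6 peaks that ended before 58.8 Mb in hg19. The arm held 316 of the 9941 RUNX2 peaks and 814 of the 27246 CBFB peaks, or 1130 of 37187 in all. The long arm, which served as the comparison, held 623 RUNX2 and 1517 CBFB peaks.

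RUNX2 is the transcription factor that sets mesenchymal cells on the path to bone, and it binds the short DNA word TGTGGT. CBFB is the partner subunit that RUNX proteins share. The short arm carries the RUNX2 gene, the main cluster of replication-dependent histone genes and the major histocompatibility complex (MHC), the block of HLA, antigen processing and complement genes. It is also an arm that is often gained in osteosarcoma. The number of copies of the arm in these cells was not measured here.

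The 10 highest RUNX2 peaks of the arm are shown by their sequence, in order of score. Stretches of 30 bases around the copy of TGTGGT nearest to the peak midpoint are given, read on the strand that carries this word, with every copy in capitals. The first lies in the annotated 5′ untranslated part of RUNX2, at chr6:45296071-45296100 on the minus strand. The next lies in an intron of ENSG00000236961 upstream of MRPS18A, a mitochondrial ribosomal protein gene, at chr6:43693062-43693091 on the minus strand. A pair of stretches lies downstream of VEGFA, the gene of the main angiogenic growth factor, between genes at chr6:43854916-43854945 on the plus strand and in an intron of LINC01512 at chr6:43892230-43892259 on the plus strand. That of CDKAL1, a gene for a tRNA-modifying enzyme, lies in an intron at chr6:20748397-20748426 on the plus strand. That of CAPN11, a calpain protease gene, lies in an intron at chr6:44149507-44149536 on the minus strand. Another pair lies between genes downstream of CDC5L, which encodes a splicing factor, at chr6:44533130-44533159 on the minus strand and at chr6:44630799-44630828 on the minus strand. That of MDFI, an inhibitor of myogenic transcription factors, lies in an intron at chr6:41613608-41613637 on the minus strand. That of KIF13A, a kinesin motor gene, lies in an intron at chr6:17962945-17962974 on the plus strand.
RUNX2: cactTGTGGTtcTGTGGTtgtttgtgaggc
MRPS18A: ccaaatactcttTGTGGTttgggcaccggc
VEGFA, score 441.6: ctatttttagtgTGTGGTgtttgccctgtg
CDKAL1: gacataacacttTGTGGTttaaaattacag
VEGFA, score 364.5: tgtcgcccagccTGTGGTcgccctggccgg
CAPN11: tgtatgtgtgtgTGTGGTGTGGTtgtgtct
CDC5L, score 327.18: acctacacaccaTGTGGTcaggcgctgtgc
CDC5L, score 324.65: tacctttgtctcTGTGGTttttgtcctcaa
MDFI: tgcacgtgtgcaTGTGGTgtcgggaggggc
KIF13A: cagacaaattccTGTGGTcctctctctctc
The RUNX2 stretch held 2 copies in tandem, and 1 of them lay 1 bp from the peak midpoint. The copy nearest to the midpoint was followed by another T in 4 of the 10. The CAPN11 stretch was part of a TG-rich repeat, and the whole peak held 45 copies, against 2 to 6 in the other 9 peaks.

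Peaks were about as dense on the short arm as on the long arm, although the short arm is far richer in genes. RUNX2 peaks numbered 5.39 per assembled Mb on the short arm (exact Poisson 95% interval 4.81 to 6.01) and 5.73 on the long arm (5.29 to 6.20), a ratio of 0.940 (0.818 to 1.08). CBFB peaks numbered 13.9 per Mb (12.9 to 14.9) and 14 (13.3 to 14.7), a ratio of 0.994 (0.912 to 1.08). Both intervals of the ratio held 1. Without the 3 densest neighbouring windows of the short arm, from 43 to 46 Mb, the ratio was 0.796 for RUNX2 and 0.870 for CBFB. These windows were chosen for their counts and left out of the short arm only, so a lower ratio was fixed in advance. Without the nearly empty MHC alone, likewise left out of the short arm, the ratios were 1.006 and 1.06. In covered bases per Mb the CBFB ratio was 0.882. All intervals here cover counting error only. Peaks were not replicates, and no p-value was computed.

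Relative to genes, the short arm had fewer peaks. It carried 617 protein-coding genes by their annotated start, or 10.5 starts per Mb, against 431, or 3.96 per Mb, on the long arm. There were 0.512 RUNX2 peaks per coding start on the short arm and 1.45 on the long arm, a ratio of 0.354 (0.308 to 0.406). For CBFB the values were 1.32 and 3.52, a ratio of 0.375 (0.344 to 0.408).

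Against the other chromosomes both arms of chromosome 6 were rich in peaks. The density on 6p was 1.60 times that of chromosomes 1 to 22 and X without chromosome 6 for RUNX2 (1.42 to 1.79) and 1.49 times for CBFB (1.39 to 1.60). Among 41 chromosome arms 6p ranked 7 for RUNX2 and 6 for CBFB, and 6q ranked 4 and 5. The median arm had 3.23 RUNX2 and 9.05 CBFB peaks per Mb. In peaks per coding start 6q ranked 1 for both proteins, whereas 6p ranked 21 and 24.

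**Figure D1:**
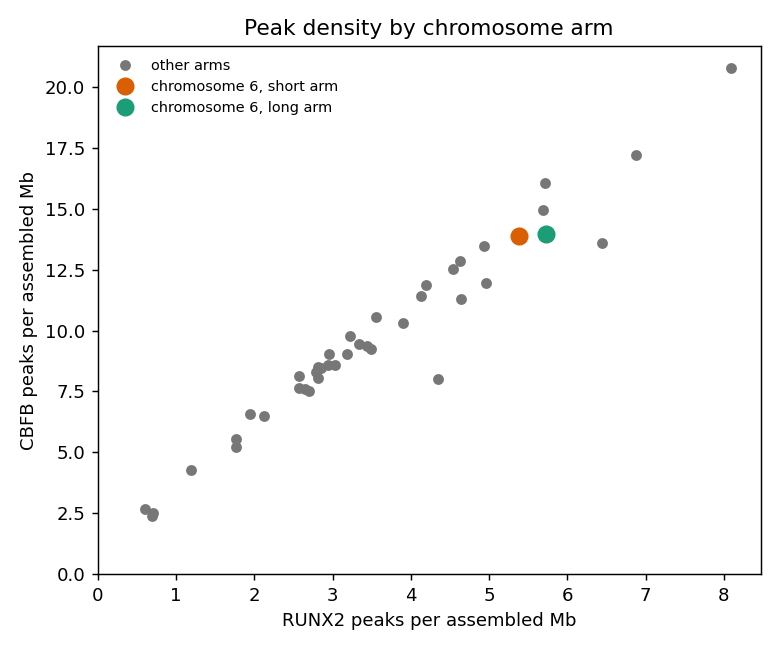
RUNX2 peaks per assembled Mb (x axis) against CBFB peaks per assembled Mb (y axis), 1 point for each of 41 chromosome arms. The short arm of chromosome 6 (5.39 and 13.9) and the long arm (5.73 and 14) lie next to each other, above the median arm (3.23 and 9.05).

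Along the short arm the peaks were concentrated in a few places. In windows of 1 Mb, the number of RUNX2 peaks ran from 0 to 32 with a median of 4, and that of CBFB peaks from 0 to 63 with a median of 11. The long arm had the same medians of 4 and 11 but lower maxima of 24 and 51. The 5 densest of the 59 short-arm windows held 32.0% of its RUNX2 peaks and 26.2% of its CBFB peaks. The 5 densest of the 111 long-arm windows held 15.7% and 13.5%, and since that arm has more windows, these shares are given side by side only. RUNX2 and CBFB counts rose and fell together along the arm, with a Spearman rho of 0.918 over the 59 windows, which share the same DNA and the same base composition.

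**Figure D2:**
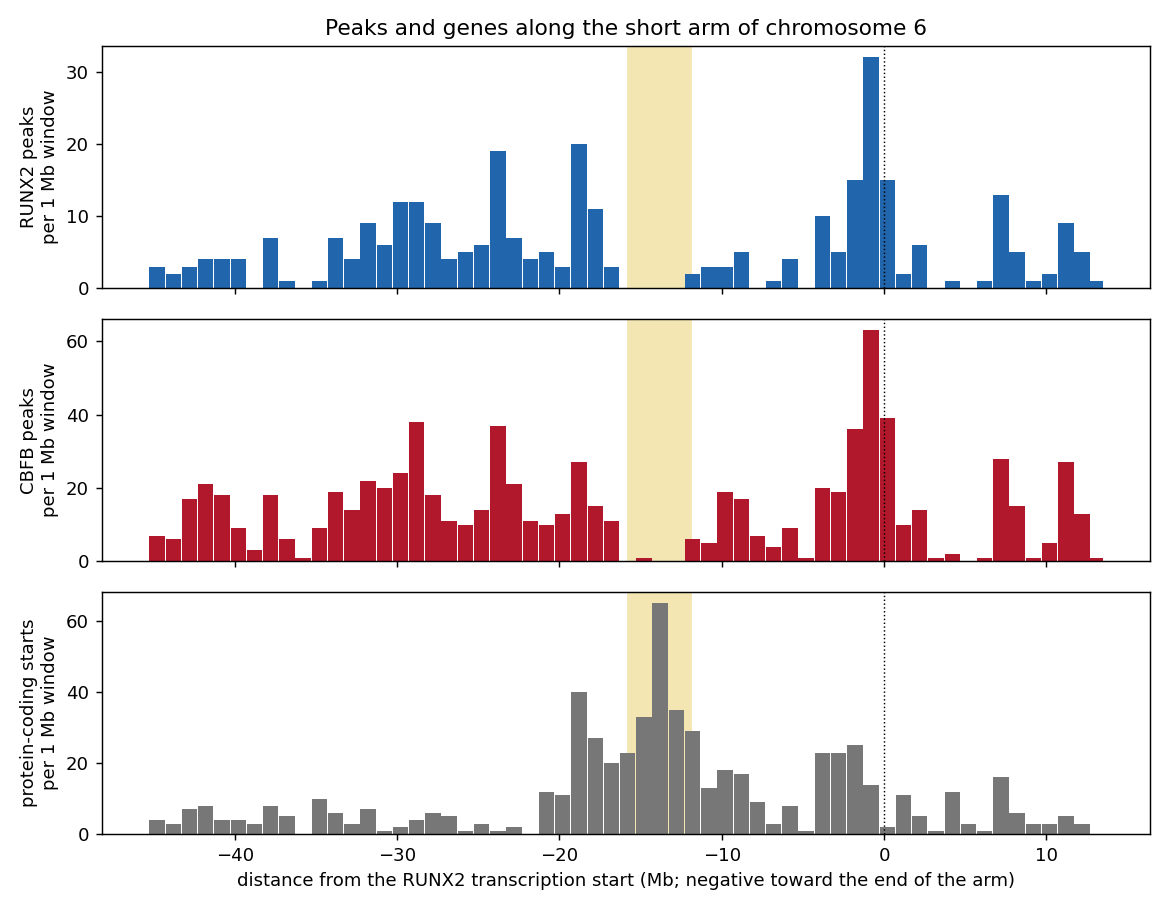
RUNX2 peaks, CBFB peaks and protein-coding starts in each 1 Mb window of the short arm (y axes, counts), by distance from the RUNX2 transcription start in Mb (x axis, dotted line at 0). Both lists peak in the window from 44 to 45 Mb, which ends before the RUNX2 start, with 32 RUNX2 and 63 CBFB peaks. They hold 0 and 1 peaks in the shaded MHC with its 160 coding starts.

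The densest place was the stretch from 43 to 46 Mb, which holds the RUNX2 gene in its last window, from 45 to 46 Mb. The stretch was not densest at the gene itself. Its densest window, from 44 to 45 Mb, ended before the RUNX2 start. With windows shifted by 500 kb the densest ran from 43.5 to 44.5 Mb for both proteins. The 3 windows from 43 to 46 Mb held 62 RUNX2 peaks, or 19.6% of those on the arm, at 20.7 per Mb (15.8 to 26.5). They held 138 CBFB peaks, or 17%, at 46 per Mb (38.6 to 54.3). Overlap with CBFB was found for 61 of the 62. These windows had 41 of the 617 coding starts of the arm. They were chosen for their counts, so the counts are a description.

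Within this stretch the window from 44 to 45 Mb came first for both proteins, with 32 RUNX2 and 63 CBFB peaks. Of these RUNX2 peaks 14, or 43.8%, scored at or above the median of the whole list, and with such peaks alone the densest window of the arm held 14 RUNX2 and 29 CBFB peaks. All 32 RUNX2 peaks there overlapped a CBFB peak, 16 lay in introns and 13 between genes. SUPT3H, a subunit gene of the SAGA co-activator complex that lies head to head with RUNX2 and overlaps it, had 10 RUNX2 and 18 CBFB peaks within 25 kb of its body. SLC29A1, a nucleoside transporter gene, had 3 and 3, and HSP90AB1, the gene of a cytosolic HSP90 chaperone, had 3 and 4. NFKBIE, which encodes an inhibitor of NF-kappaB, had 2 and 3, and CDC5L had 1 and 9. MYMX, a myoblast fusion gene, had 2 and 2, SLC35B2, a transporter gene, 2 and 3, TMEM63B, an ion channel gene, 1 and 3, and ENSG00000272442 1 and 4. MYMX, SLC29A1, HSP90AB1, SLC35B2 and NFKBIE are close neighbours and counted some of the same RUNX2 peaks. The highest of these peaks scored 70.37, below the median of the whole list.

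The window from 45 to 46 Mb held 15 RUNX2 and 39 CBFB peaks around only 2 coding starts. RUNX2 had 9 RUNX2 and 24 CBFB peaks within 25 kb, and 18 RUNX2 and 40 CBFB peaks lay near RUNX2, SUPT3H or both. CLIC5, a chloride channel family gene, had 0 RUNX2 and 6 CBFB peaks. The window from 43 to 44 Mb held 15 and 36 peaks and carried VEGFA, with 1 RUNX2 and 2 CBFB peaks within 25 kb. ZNF318, a zinc finger gene, had 2 and 3. The other genes counted there had 0 or 1 RUNX2 peak, with 1 CBFB peak for ABCC10 and DLK2, 3 for POLH, GTPBP2, MAD2L1BP and KLC4, and 4 for RSPH9 and PTK7. POLH, GTPBP2, MAD2L1BP and RSPH9 counted the same RUNX2 peak, which scored 185.9, and ABCC10 and DLK2 shared one of 59.77. Of the 15 RUNX2 peaks in that window, 13 scored at or above the median of the whole list.

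The highest scores of the arm also fell here. The score, taken as the significance score of the peak caller, was used only within a list. Of the 10 highest RUNX2 peaks on the arm 7 lay between 43 and 46 Mb, and of the 10 highest CBFB peaks 6 did. The first RUNX2 peak, at the RUNX2 start (chr6:45295403-45296767), scored 681.08. The peak upstream of MRPS18A (chr6:43692543-43693736) followed with 454.71, and one between genes 116821 bp from the VEGFA start (chr6:43853586-43855897) with 441.6. The CBFB peaks that overlapped these 3 scored 1926.11, 1528.52 and 3100, and 3100 was the ceiling of both lists, reached by 25 CBFB peaks in all, 2 of them on the long arm. Among other CBFB peaks of high score on the arm were one in an intron of SCIRT (1717.3). Outside the stretch, one lay in an intron of MDFI (1560.93), which had 5 RUNX2 and 6 CBFB peaks within 25 kb. Another lay in an intron of LINC01564 next to GCLC (1461.71), the gene of a glutathione synthesis enzyme. One more lay in an intron of BMP6 (1293.75), a bone morphogenetic protein gene.

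Not all peaks of the stretch were strong. The share of RUNX2 peaks at or above the median score of the list was 58.1% (exact Clopper-Pearson 44.8 to 70.5) between 43 and 46 Mb and 51.2% (44.9 to 57.5) on the rest of the arm. For CBFB the shares were 50.7% (42.1 to 59.3) and 49.6% (45.7 to 53.4). The intervals overlapped for both proteins. The shares within 5 kb of an annotated transcription start were 30.6% (19.6 to 43.7) and 42.5% (36.4 to 48.9) for RUNX2 and 29% (21.6 to 37.3) and 39.5% (35.8 to 43.3) for CBFB. Here too the intervals overlapped.

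**Figure D3:**
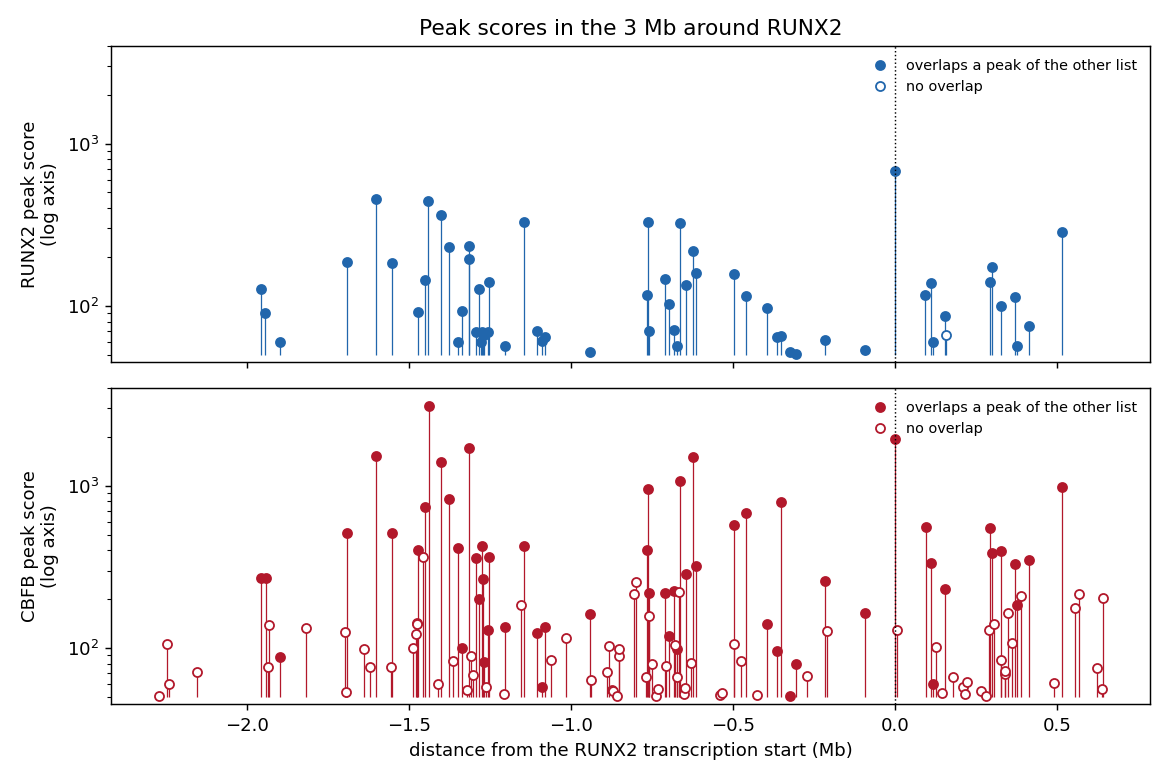
Score of each RUNX2 peak (upper panel) and CBFB peak (lower panel) between 43 and 46 Mb on a log axis, by distance from the RUNX2 transcription start in Mb; filled points overlap a peak of the other list. The highest RUNX2 peak (681.08) sits at the RUNX2 start, the highest CBFB peak (3100) lies toward VEGFA, and 61 of the 62 RUNX2 points are filled.

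Other dense windows differed in what lay in them. The window from 21 to 22 Mb held 19 RUNX2 and 37 CBFB peaks and 1 coding start, that of SOX4, a developmental transcription factor. Of the 19 RUNX2 peaks 16 lay in introns, and 3 were within 5 kb of a start. Introns of noncoding genes were counted as well. CDKAL1, which runs from 20534688 to 21232635 and so lies mostly before this window, had 8 RUNX2 and 16 CBFB peaks within 25 kb. That count includes peaks outside the window, among them the RUNX2 peak that scored 401.05. SOX4 had 1 and 3. The window from 16 to 17 Mb, with 12 RUNX2 and 38 CBFB peaks, belonged mostly to ATXN1, the gene of the polyglutamine protein ataxin 1, which had 9 and 25. GMPR, a purine metabolism gene, had 2 and 3, MYLIP, a ubiquitin ligase gene, 1 and 2, and ENSG00000288708 1 and 3.

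The window from 26 to 27 Mb, with 20 RUNX2 and 27 CBFB peaks, lay in the histone cluster and held 40 coding starts, against 14 in the window from 44 to 45 Mb. Here 14 of the 20 RUNX2 peaks, or 70.0% (45.7 to 88.1), lay within 5 kb of a start, against 25% (11.5 to 43.4) in the window from 44 to 45 Mb. For CBFB it was 81.5% (61.9 to 93.7) against 25.4% (15.3 to 37.9). The RUNX core motif was within 100 bp of the midpoint in 3 of these 20 peaks, or 15% (3.21 to 37.9), and in 16 of 32, or 50% (31.9 to 68.1), in the window from 44 to 45 Mb. For CBFB the motif shares were 18.5% (6.30 to 38.1) and 46% (33.4 to 59.1). Neither motif nor start distance had been used to choose the windows. Between these windows the intervals of the share near a start did not overlap for either protein, whereas the motif intervals did. The share of each window's sequence within 5 kb of a start was not measured. The unequal number of coding starts, 40 against 14, was therefore not allowed for. The intervals also treat neighbouring peaks as independent. The window from 43 to 44 Mb, with 25 coding starts, had intervals that overlapped those of the window from 26 to 27 Mb in all 4 shares. Its shares near a start were 60% (32.3 to 83.7) for RUNX2 and 58.3% (40.8 to 74.5) for CBFB, and its motif shares were 40% (16.3 to 67.7) and 25% (12.1 to 42.2).

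From the first to the last histone gene the cluster held 31 RUNX2 peaks, or 14.5 per Mb (9.85 to 20.6), and 43 CBFB peaks, or 20.1 per Mb (14.6 to 27.1). Of the 52 histone genes of the arm, 49, or 94.2%, had a RUNX2 peak within 25 kb and 47, or 90.4%, a CBFB peak. The background over all protein-coding genes was 36.0% and 62.2%. Within 5 kb of the start the numbers were 23, or 44.2%, and 30, or 57.7%, next to a background of 12.1% and 30.5%. H2BC3 and H3C3 had the most, with 5 RUNX2 and 5 CBFB peaks each, as did the neighbouring HMGN4, a nucleosome-binding protein gene. H1-1, H3C2 and H2AC4 had 4 of each, whereas H2AC1, H2BC1 and H4C8 had none. The genes are small and packed, so neighbours counted the same peaks. They are also near-copies of each other, so reads from them could be placed on the wrong copy.

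The most gene-dense part of the arm was nearly empty. Across the MHC, taken from GABBR1 to KIFC1 (chr6:29523406-33377673, 160 coding starts), the RUNX2 list had 0 peaks, for which the exact interval allows up to 0.957 per Mb. The CBFB list had 1, or 0.259 per Mb (0.00657 to 1.45). That peak (chr6:30931621-30932603, score 123.17) lay near MUC21, SFTA2 and MUCL3 and overlapped no RUNX2 peak. The longest stretch of the arm without a RUNX2 peak ran from 28318324 to 33739250. It spanned 5.42 Mb and 191 coding starts, from ZSCAN31, a zinc finger gene, to IP6K3, an inositol phosphate kinase gene. The longest stretch on the long arm was similar in length, at 6.27 Mb, but held 7 coding starts. Stretches without a CBFB peak ran for 2.61 Mb on either side of the peak near MUC21, with 61 and 125 coding starts.

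All lists of MHC genes gave the same counts. None of the 6 HLA class I genes, which present peptides to CD8 T cells, had a peak of either protein within 25 kb. The same held for the 13 HLA class II genes, which present to CD4 T cells. It also held for the 16 antigen processing and class III genes, among them TAP1 and TAP2 (peptide transporters), PSMB8 and PSMB9 (immunoproteasome subunits), TNF (a cytokine) and C4A and C4B (complement). All of these genes lie in the nearly empty stretch described above, so the counts restate it and are not separate results. The background over all protein-coding genes was 36.0% for RUNX2 and 62.2% for CBFB. The exact intervals reach 45.9%, 24.7% and 20.6% for the 3 lists. They treat neighbouring genes as independent, so they were not set against the background. Several of these genes occur in near-identical copies.

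The hg19 assembly also holds alternative versions of this region as separate haplotype contigs, and these carried peaks. The CBFB list had 15 peaks on 7 such contigs of chromosome 6, with scores from 53.57 to 217.03, and the RUNX2 list had 2 on 2 contigs, with scores of 66.97 and 71.45. These peaks were not members of the arm, and their counts are summed over contigs and not divided by length. Whether reads that matched several versions were dropped before peak calling was not given in the sources used here, so the part that read placement had in the empty region was not tested. Missing peaks in this region can therefore not be read as missing protein.

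Gene density and peak density were compared with and without the windows of the MHC. Over all 59 windows the Spearman rho between coding starts and peaks was 0.07 for RUNX2 and 0.09 for CBFB, against 0.48 and 0.51 over the 111 windows of the long arm. Without the 5 windows that the MHC touches, a view added after the counts were seen, it was 0.29 and 0.34. These 5 windows held 185 coding starts but only 2 RUNX2 and 7 CBFB peaks. A higher rho, and a higher density in the richest class, were therefore fixed in advance. The 9 windows that remained with 15 or more coding starts had 9.44 RUNX2 peaks per Mb (7.54 to 11.7), against 6.21 (4.98 to 7.67) over all 14. For CBFB the values were 21.3 (18.4 to 24.6) and 14.2 (12.3 to 16.3). No long-arm window was that rich in genes.

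The arms were also compared at like gene density. In windows with 0 to 4 coding starts the short arm had 12.1 CBFB peaks per Mb and the long arm 9.89, a ratio of 1.22 (1.06 to 1.41). Without the window from 45 to 46 Mb it was 1.11 (0.957 to 1.28), an interval that held 1. That window had the most CBFB peaks of its class on the short arm and was left out of this arm only. A lower ratio was therefore fixed in advance. The ratio for RUNX2 was 1.11 (0.886 to 1.39). In windows with 5 to 14 coding starts the short arm had fewer. RUNX2 peaks numbered 5.75 per Mb there and 7.98 on the long arm, a ratio of 0.720 (0.579 to 0.891), and CBFB peaks 15.8 and 19.7, a ratio of 0.801 (0.702 to 0.911).

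**Figure D4:**
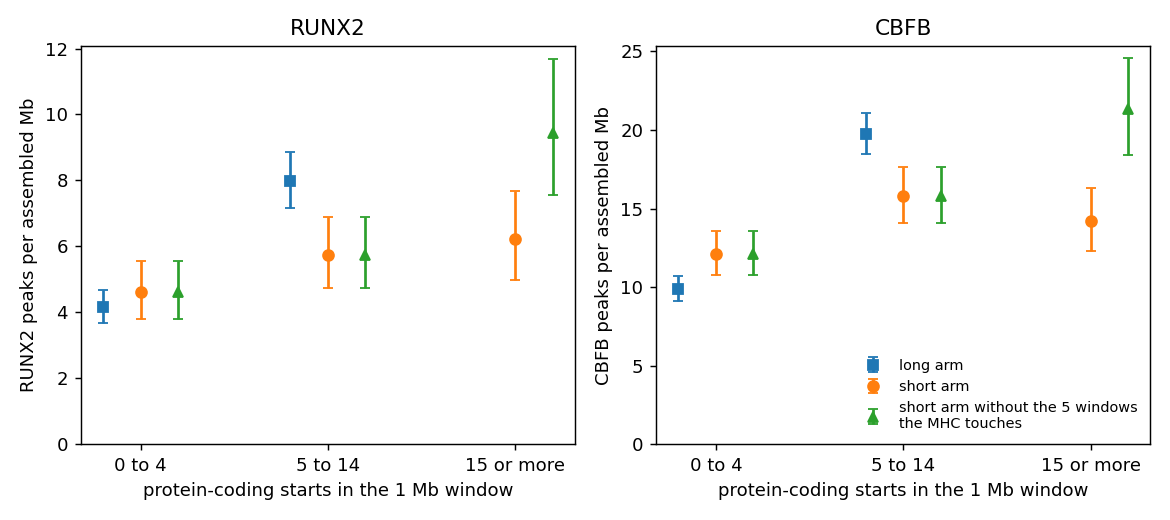
RUNX2 (left) and CBFB (right) peaks per assembled Mb (y axes) in 1 Mb windows with 0 to 4, 5 to 14 and 15 or more protein-coding starts (x axes), with exact Poisson 95% intervals. The short arm lies below the long arm in the middle class (5.75 against 7.98 for RUNX2). Leaving out the 5 nearly empty windows the MHC touches could only raise its richest class, from 6.21 to 9.44 RUNX2 peaks per Mb.

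RUNX2 peaks of the short arm nearly always overlapped a CBFB peak. An overlap of at least 1 bp was found for 299 of 316 RUNX2 peaks, or 94.6% (91.5 to 96.8), against 93.9% (91.7 to 95.6) on the long arm and 94.2% in the whole list. In the other direction 293 of 814 CBFB peaks overlapped a RUNX2 peak, or 36.0% (32.7 to 39.4), against 37.5% (35.1 to 40.0) on the long arm and 33.8% in the whole list. These shares depend on the unequal length of the lists, and with the CBFB list cut to the length of the RUNX2 list they were 67.4% for RUNX2 and 70.4% for CBFB on the short arm. The scores of the 299 pairs had a Spearman rho of 0.634, and their midpoints lay a median of 97 bp apart. The corresponding values for the 585 long-arm pairs were 0.669 and 131 bp.

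The overlap was not even along the arm. From 20 to 30 Mb 68 of 78 RUNX2 peaks, or 87.2%, overlapped a CBFB peak, whereas from 40 to 50 Mb 85 of 86 did and from 50 Mb to the limit all 37 did. For CBFB the share ran from 24.5% (16.7 to 33.8) in the first 10 Mb to 42.1% (34.4 to 50.2) between 20 and 30 Mb. These are the lowest and highest segments. The others had 35.1%, 25%, 40% and 39.6%, with intervals that overlapped both of these.

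Peaks found in only 1 list had lower scores, as a group, than shared ones. The 17 RUNX2 peaks without a CBFB peak scored 52.24 to 109.25 with a median of 63.1, against a median of 90.02 for the shared ones. Of these 17 peaks, 10 lay between 24 and 28 Mb, where 39 of the 316 RUNX2 peaks of the arm lay. The highest was at the start of ACOT13, a thioesterase gene (109.25), and others were at KIAA0319, ZNF184 and H2BC9. A start lay within 5 kb of 11 of the 17, or 64.7% (38.3 to 85.8), against 38.8% (33.2 to 44.6) of the shared peaks and 26.3% (13.4 to 43.1) of the 38 such peaks on the long arm. The RUNX core motif was within 100 bp of the midpoint in 1, or 5.88% (0.149 to 28.7). Among the 299 shared RUNX2 peaks it was 41.8% (36.2 to 47.6). On the long arm, by contrast, 18 of 38 RUNX2 peaks without a CBFB peak had the motif, or 47.4% (31.0 to 64.2). The 521 CBFB peaks without a RUNX2 peak had a median score of 91.45 and reached 509.74, in an intron of CDKAL1, whereas the shared ones had a median of 274.24. Another of them lay in an exon of TBCC, a tubulin folding factor gene, and scored 435.68.

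The motif share of all peaks was well above that of nearby DNA. TGTGGT was searched on both strands, as itself or as its reverse complement ACCACA, within 100 bp of each midpoint, and the copies could overlap. It was present at 39.9% of the short-arm RUNX2 peaks (34.4 to 45.5) and 40.8% of the CBFB peaks (37.4 to 44.3). Flanking windows of the same length 2 kb away held it in 14.4% and 12.7%, and 13.8% of all 201-bp tiles of the arm did. The long-arm peaks had it in 43.3% and 38.6%. In the short-arm RUNX2 peaks 53.5% of the copies (45.7 to 61.1) were followed by another T, against 25.3% (16.4 to 36.0) in the flanks. The CBFB peaks without a RUNX2 peak had the motif nearly as often as the shared CBFB peaks, in 39.5% (35.3 to 43.9) and 43% (37.3 to 48.9). GC content was also higher in the RUNX2 peaks, at 49.9%, than in their flanks, at 42.9%, and its part in these shares was not tested. Other RUNX proteins read the same word, so a match is not specific to RUNX2.

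Most peaks lay in introns. For RUNX2 the shares were 59.8% in introns, 26.9% between genes, 7.91% in other exon sequence and 5.38% in untranslated regions, and for CBFB 58.6%, 27.9%, 7.49% and 6.02%. Within 5 kb of a transcription start lay 40.2% of the RUNX2 peaks (34.7 to 45.8) and 37.7% of the CBFB peaks (34.4 to 41.1). On the long arm the shares were 36.0% and 39.1%. The median score was 86.85 for the short-arm and 89.43 for the long-arm RUNX2 peaks, and 120.22 and 132.9 for CBFB.

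Fewer genes of the short arm than of the long arm had a peak nearby. Within 25 kb of the gene body, 209 of 617 short-arm genes had a RUNX2 peak, or 33.9% (30.1 to 37.8), against 54.5% (49.7 to 59.3) on the long arm and a background of 36.0% over all chromosomes. For CBFB 322 genes did, or 52.2% (48.2 to 56.2), against 82.8% (78.9 to 86.3) and a background of 62.2%. Outside the MHC 209 of 457 genes, or 45.7% (41.1 to 50.4), were near a RUNX2 peak and 319, or 69.8% (65.4 to 74.0), near a CBFB peak. Leaving the nearly empty MHC out of the short arm alone could only raise its shares. They went from below the background, which keeps the MHC, to above it. For CBFB the interval outside the MHC lay below that of the long arm, and for RUNX2 the intervals overlapped.

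Among 15 growth and cell-cycle genes, 9 had a RUNX2 peak within 25 kb, or 60% (32.3 to 83.7), and 14 a CBFB peak, or 93.3% (68.1 to 99.8). The background of 36.0% lay inside the RUNX2 interval and that of 62.2% below the CBFB interval. None of the 15 genes lies in the MHC. The shares of all short-arm genes outside the MHC, 45.7% for RUNX2 and 69.8% for CBFB, lay inside the intervals. PRIM2, a DNA primase subunit gene, had 5 RUNX2 and 9 CBFB peaks. DEK, a chromatin protein gene, had 2 and 4, and CCND3, the cyclin D3 gene, had 1 and 5. The remaining 5 had CBFB peaks alone, with 1 each for PIM1 (a kinase), CDKN1A (the p21 cell-cycle inhibitor) and MAPK14 (the p38 kinase), 2 for E2F3 (a cell-cycle transcription factor) and 4 for PTK7 (a receptor-like kinase). HMGA1, a chromatin architecture gene, had 0 of both.

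Among 25 transcription factor and cofactor genes 9 had a RUNX2 peak, or 36.0% (18.0 to 57.5), and 15 a CBFB peak, or 60.0% (38.7 to 78.9). Both intervals held the background of 36.0% and 62.2%. SUPT3H and RUNX2 led. JARID2, a cofactor of Polycomb repressive complex 2, had 6 RUNX2 and 13 CBFB peaks, TFEB, a regulator of lysosome genes, had 2 and 5, and PPARD, a lipid-sensing nuclear receptor, had 1 and 8. FOXQ1, FOXF2 and FOXC1, which form a cluster of forkhead genes near the end of the arm, had 0 of both, as did TFAP2B, TFAP2D and FOXP4. POU5F1, ATF6B and RXRB, which lie in the MHC, also had 0 of both, and the shares of the list keep them.

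Among 15 skeletal and matrix genes 8 had a RUNX2 peak, or 53.3% (26.6 to 78.7), and 11 a CBFB peak, or 73.3% (44.9 to 92.2), and both intervals held the background of 36.0% and 62.2%. DST, a cytoskeletal linker gene, had 6 and 21. COL21A1, a collagen gene, had 3 and 5, and NEDD9, an adhesion scaffold gene, had 2 and 5. BMP6 had 1 RUNX2 peak with a score of 219.11 and 6 CBFB peaks, whereas BMP5 had 0 and 2. COL11A2 and TNXB, which lie in the MHC, had 0 of both. Long genes such as ATXN1, CDKAL1 and DST span more DNA for a peak to fall in, and the counts were not divided by length.

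**Figure D5:**
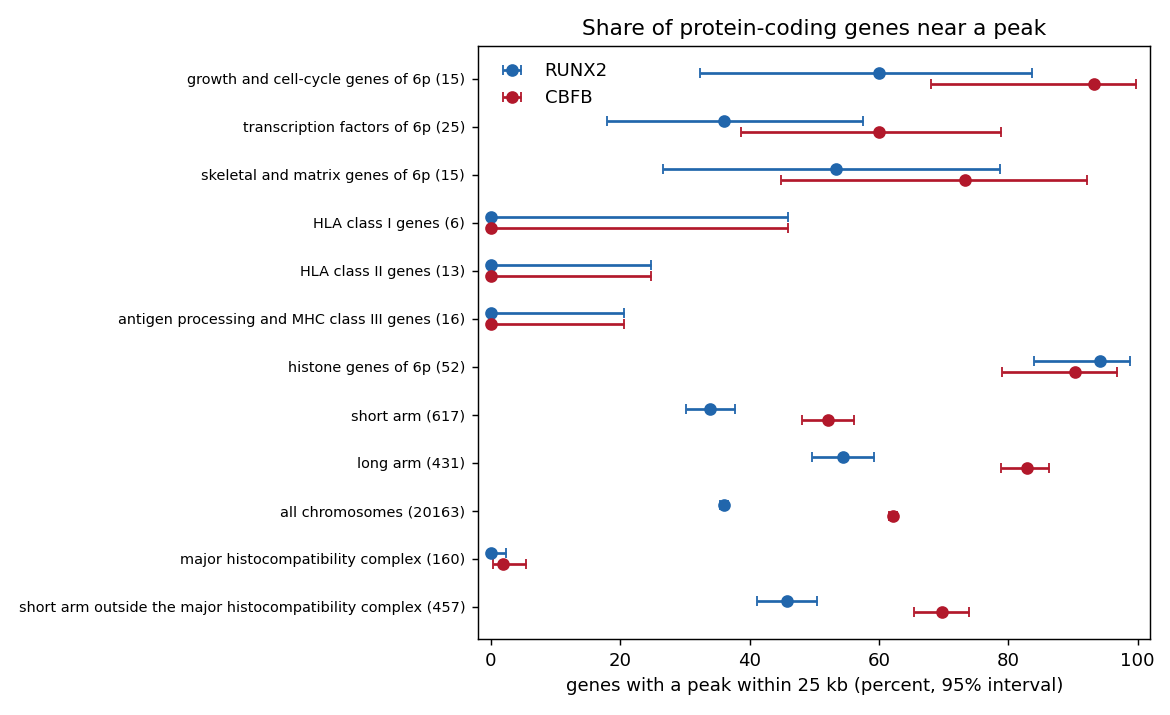
Percent of protein-coding genes with a RUNX2 or CBFB peak within 25 kb (x axis) for each gene list, with the number of genes in brackets (y axis) and exact 95% intervals. The 3 MHC gene lists sit at 0, the histone genes at 94.2% for RUNX2 and 90.4% for CBFB, and the short arm outside the MHC (45.7% and 69.8%) between all chromosomes and the long arm. The share of all chromosomes keeps the MHC.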

How the data were processed

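The data were 1 peak list each for the RUNX2 and CBFB ChIP of SAOS2 cells. The submitters' processing notes named CASAVA 1.8.2, MACS 1.4.1 and hg19. The aligner, the calling limit and the use of the input were not given in the sources used here. The lists deposited by the authors gave each peak's position and a score, read here as the significance score of MACS from the peak names and the values (50 to 3100). They held no reads, so the depth is unknown. Scores depend on depth and were used only within a list.

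Peaks were assigned to windows of 1 Mb by midpoint, and densities used assembled bases, without gaps. Overlap meant at least 1 bp. Promoter (5 kb) and gene (25 kb) distances followed the study's methods. Genes were those of GENCODE release 44 on GRCh37 (64449, of which 20163 protein-coding), and sequences and motifs were read from the GRCh37 genome. Peaks on extra contigs were left out, except for the overlap shares of whole lists and the count on haplotype contigs. Intervals were exact Poisson or Clopper-Pearson 95% intervals. With 1 library per antibody there was no test and no p-value.

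The arm, gene lists and comparisons were chosen with earlier results of these data known. Named genes were those with the most peaks in the 5 densest windows of each list, those nearest to the 10 highest peaks, list members with most or no peaks, RUNX2, and genes at the ends of stretches without peaks; genes at peaks of a single list and near the MHC peak were added after their values were seen. Alternatives covered the unit of density, the overlap rule, the score limit, the promoter, gene and motif reach, and regions left out. The counting and overlap steps were tested on simulated data. Python 3.11.15, numpy 2.4.6, pandas 2.3.3, scipy 1.17.1 and matplotlib 3.10.9 were used.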

Additional observations from a re-analysis of the deposited data

Results flagged for a closer look

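Peaks outside the comparisons were found on the haplotype contigs of chromosome 6, the alternative versions of the MHC in hg19. The CBFB list held 15 of them on 7 contigs, and 1 overlapped a RUNX2 peak. On the chromosome itself the same region held 1 CBFB peak in 3.85 Mb. The 15 peaks are summed over 7 versions of the region and were not divided by length. They can therefore not be set against the 1 peak as a difference in density. The RUNX2 list held 2 peaks on 2 contigs.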

How the results depend on the processing

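Of 42 values recomputed for 14 results, 20 stayed within the interval of the reported value (counts, within 1.5 times) and 22 moved. Counted per coding start, the ratio of density between the arms was 0.354 for RUNX2 and 0.375 for CBFB. In covered bases per Mb the CBFB ratio was 0.882. In an alternative chosen after seeing the data, without the windows from 43 to 46 Mb, the ratios fell to 0.796 and 0.870; without the MHC alone, also added later, they were 1.006 and 1.06. In windows with 0 to 4 coding starts the window from 45 to 46 Mb was left out of the short arm only, an alternative added later too. The ratios could therefore only fall, and were 1.01 for RUNX2 and 1.11 for CBFB. The share of RUNX2 peaks that overlapped CBFB was 77.8% with at least 50% of each peak, 67.7% with midpoints within 200 bp and 67.4% with the CBFB list cut to the length of the RUNX2 list. That of CBFB peaks was 30.2%, 26.3% and 70.4%. Within 1 kb of a start lay 25% of RUNX2 peaks and 22.6% of CBFB peaks, and within 5 kb of a protein-coding start 26.9% and 24.4%. The motif TGTGGTT gave 24.1% and 22.9%, and the core in the whole peak 75% and 79.4%. Within 5 kb of the gene body, 138 genes had a RUNX2 peak. With peaks at or above the median score, the densest window held 14 RUNX2 and 29 CBFB peaks. With windows shifted by 500 kb it held 26 and 54, from 43.5 to 44.5 Mb. No paired analysis was possible because there was a single library per antibody. For the same reason no replicate could be left out, and an unknown depth limits every statement on missing peaks.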
